A study of Mus musculus with 6 samples.

Results

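The hyperpolarization-activated cyclic nucleotide-gated (HCN) channels carry the pacemaker current of neurons and heart muscle. The genes described here are Hcn2, Hcn3 and Hcn4, which were taken by symbol from the deposited gene table. They are 3 of its 17524 genes, and all 3 passed the filter on low values. The data are bulk RNA sequencing of trigeminal ganglia from wild-type (WT) mice, in a vehicle group of 3 libraries and an NTG group of 3. NTG is not spelled out in the labels (mouse models of migraine often use nitroglycerin under these letters), and no dose, time, age or sex is given. Both groups share the wild-type genotype and the tissue. The labels do not say whether a library holds the ganglia of 1 mouse or of several, so p-values rest only on the spread among these libraries, which may be technical.

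HCN subunits assemble as tetramers around a central pore that passes sodium and potassium. Unlike most voltage-gated channels they open when the membrane hyperpolarizes, and binding of cyclic AMP to a domain near the carboxyl end makes them open more readily. The inward current that results depolarizes the cell again and sets how soon it can fire. In sensory ganglia Hcn2 is known from many small and medium neurons, including nociceptors, where Hcn2 has been linked to inflammatory and neuropathic pain. Hcn4 is best known from the sinoatrial node of the heart, and Hcn3 is the least studied of the family.

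The libraries held 18813027 to 23774244 reads. The neuronal marker Tubb3 stood at 2087 to 2179 CPM (counts scaled to library size) and the sensory neuron sodium channel gene Scn10a at 774 to 878 over the 6 libraries, as the labelled tissue requires. Among tested protein-coding genes with a matched transcript, the direction of a change in NTG went with the base composition of the transcript. Per library, deviations from the gene mean had a slope over GC content of 0.11, 0.19 and 0.17 log2 units per 10 percentage points in vehicle replicates 1 to 3. In NTG replicates 1 to 3 the slope was -0.22, -0.17 and -0.08. HCN transcripts lie at the high end of the GC scale, so their results are given with GC content beside them and again after a smooth trend over GC content and length was subtracted in each library, as are counts of the gene lists. This removal takes out any change that follows GC content or length, whatever its source.

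The selectivity filter shows how far the 3 genes differ in composition while they encode nearly the same channel part. Each stretch holds 81 bases of coding sequence, 5′ to 3′ on the coding strand, with the 3 codons for glycine, tyrosine and glycine of the filter in capitals. They come from GENCODE M21 transcripts on GRCm38, and all lie within exon 4 of their gene: Hcn2 at chr10:79728923-79729003 (plus strand), Hcn3 at chr3:89150970-89151050 (minus) and Hcn4 at chr9:58855555-58855635 (plus).
Hcn2: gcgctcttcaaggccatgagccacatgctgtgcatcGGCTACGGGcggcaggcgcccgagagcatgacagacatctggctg
Hcn3: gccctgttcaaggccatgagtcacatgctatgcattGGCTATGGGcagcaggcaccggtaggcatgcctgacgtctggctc
Hcn4: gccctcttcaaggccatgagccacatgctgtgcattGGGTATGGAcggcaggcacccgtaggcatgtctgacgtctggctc
Of the 27 codons, 22 encode the same residue in Hcn2 and Hcn3, and 9 of these 22 end in a different base. Between Hcn2 and Hcn4, 23 codons encode the same residue and 7 of them end in a different base. Hcn3 and Hcn4 are the closest pair, with 73 of 81 bases identical. GC content at the last base of the codons in this stretch was 96.3% in Hcn2, 77.8% in Hcn4 and 74.1% in Hcn3.

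The same order holds over whole coding sequences. There GC content at the last base of the codons was 81.1% in Hcn2, 72.2% in Hcn4 and 70.6% in Hcn3. At all codon positions, GC content was 63.8% over the 2589 coding bases of Hcn2, 62.2% over 3603 in Hcn4 and 61.1% over 2337 in Hcn3. Noncoding parts set the Hcn2 transcript further apart from those of Hcn3 and Hcn4, and brought these closer to each other. The Hcn2 transcript (3195 bases) reached 65.4% GC, and 99.6% of protein-coding genes had a lower value. Hcn3 (4002 bases) and Hcn4 (6118 bases) both stood at 58.0%. The 603 noncoding bases of Hcn2 held 72.1% GC, against 53.8% in Hcn3 and 52.0% in Hcn4.

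Hcn2 was the most abundant of the 3 genes and was lower in NTG. It gave 4824, 5678 and 5528 normalised reads in vehicle replicates 1 to 3, against 3186, 3212 and 3894 in NTG replicates 1 to 3. The lowest vehicle library lay above the highest NTG library, so the groups did not overlap. The mean fell from 5343 ± 456 to 3431 ± 401 (SD, n = 3 each), 1.56-fold lower in NTG, or -0.64 ± 0.08 as a log2 fold change (SE, limma adjusted p = 4.71e-05). Only 4.76% of all genes tested had a lower log2 fold change. Hcn2 lies on chromosome 10 (79716634 to 79736108, plus strand, GRCm38) in 8 exons.

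Hcn3 and Hcn4, both at much lower levels, were lower in NTG as well, by less. Hcn3 (chromosome 3, 89146775 to 89160284, minus strand) gave 552, 681 and 646 normalised reads in vehicle and 399.1, 495 and 560.1 in NTG. Vehicle replicate 1 was the lowest of its group and fell just under NTG replicate 3, so the groups overlapped. The means were 626 ± 66.5 and 485 ± 81.0, which is -0.38 ± 0.11 as a log2 fold change (SE, adjusted p = 0.0196 by limma). Hcn4 (chromosome 9, 58822949 to 58863175, plus strand) gave 606, 794 and 865 normalised reads in vehicle and 505, 580.2 and 633 in NTG. As for Hcn3, vehicle replicate 1 lay under NTG replicate 3, and the other 2 vehicle libraries lay above all NTG libraries. The means were 755 ± 134 and 573 ± 64.3, with a log2 fold change of -0.39 ± 0.12 (SE, limma adjusted p = 0.0266).

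All 3 HCN genes thus passed as lower in NTG, where 13.5% of all genes tested passed as lower and 12.3% as higher. Groups did not overlap for 1 of the 3, Hcn2, against 39.7% of all genes tested. In a bulk tissue, fewer cells of a type and less RNA per cell cannot be told apart.

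**Figure D1:**
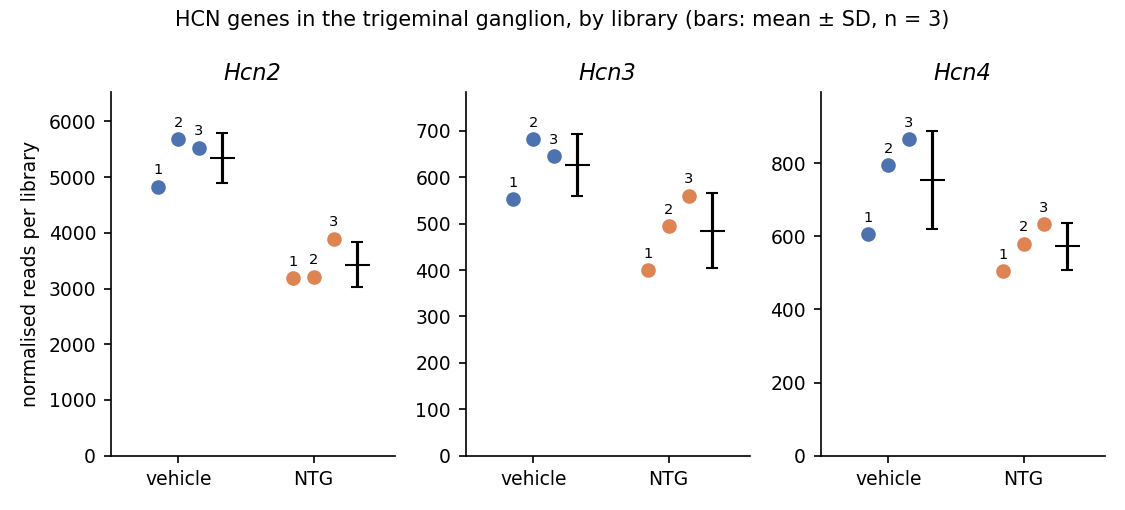
Normalised reads of each HCN gene (vertical axis, starting at 0, scale set per gene) in the 3 vehicle and 3 NTG libraries. Points are libraries with their replicate number, and bars give the mean ± SD. Hcn2 separates the groups completely (4824 to 5678 against 3186 to 3894), while Hcn3 and Hcn4 overlap through vehicle replicate 1 and NTG replicate 3.

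With 1 library fewer, Hcn3 and Hcn4 stayed below 0 but did not always pass. Hcn3 missed the threshold without vehicle replicate 2 (log2 fold change -0.31, limma adjusted p = 0.0977), vehicle replicate 3 (-0.35, 0.0669) or NTG replicate 1 (-0.24, 0.133). Hcn4 missed it without vehicle replicate 2 (-0.34, limma adjusted p = 0.114), vehicle replicate 3 (-0.28, 0.0910), NTG replicate 1 (-0.30, 0.108) or NTG replicate 2 (-0.40, 0.0655). Hcn2 passed with any 1 library left out, with limma adjusted p values between 3.76e-07 and 0.000722.

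Per length of transcript, Hcn2 led in both groups. It stood at 1672 ± 143 normalised reads per kb in vehicle and 1074 ± 126 in NTG. Hcn3 followed at 157 ± 16.6 and 121 ± 20.2 and Hcn4 at 123 ± 21.9 and 93.6 ± 10.5. In vehicle, every Hcn2 library lay far above, whereas Hcn3 (138 to 170.3) and Hcn4 (99.0 to 141) had overlapping ranges. Within each of the 6 libraries Hcn3 lay above Hcn4. In NTG the order was the same, and Hcn3 (99.7 to 140.0) and Hcn4 (82.5 to 103) again overlapped in range.

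Among the 3 genes, Hcn2 had a smaller share in each NTG library than in any vehicle library. It held 86.4%, 85.6% and 85.1% of their per-length sum in vehicle replicates 1 to 3, and 84.5%, 82.1% and 83.4% in NTG. The share of Hcn3 averaged 8.01% in vehicle and 9.38% in NTG, and that of Hcn4 6.29% and 7.27%. For each gene the shares did not overlap between groups (exact permutation test, two-sided, p = 0.1, below which 3 against 3 libraries cannot go). The shares of a library are parts of the same sum, so these are not separate results. The sum itself went from 1952 ± 179 to 1288 ± 152 normalised reads per kb (SD, n = 3 each, exact two-sided permutation p = 0.1).

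**Figure D2:**
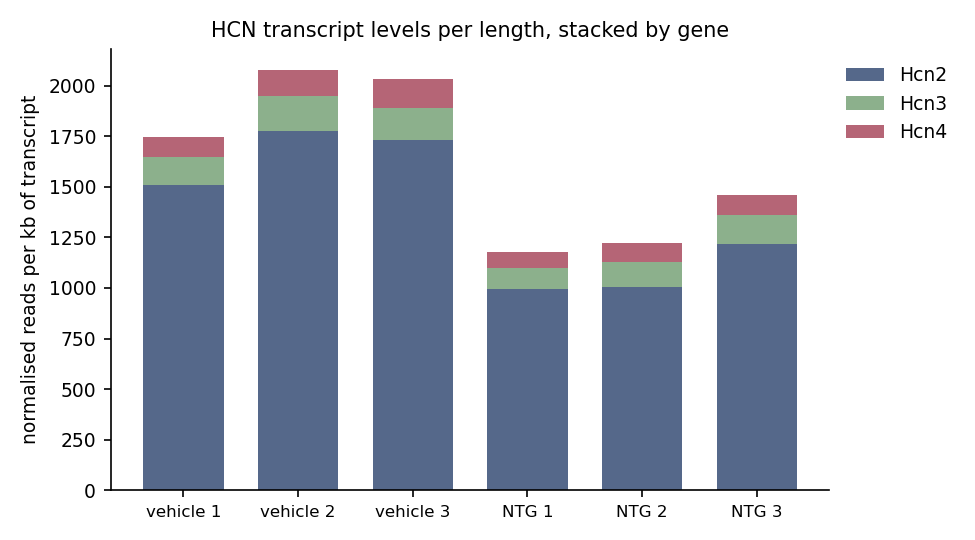
Normalised reads per kb of transcript for Hcn2, Hcn3 and Hcn4, stacked by gene, in each library (horizontal axis). Hcn2 forms most of every bar, and the 3 NTG bars (1179 to 1462) are shorter than the 3 vehicle bars (1747 to 2077).

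Ratios within a library, which do not depend on scaling, tested whether the genes differed from each other in their change. The log2 ratio of Hcn3 to Hcn2 was -3.12, -3.06 and -3.10 in vehicle and -2.99, -2.70 and -2.80 in NTG, a difference of 0.26 ± 0.09 (SE). That of Hcn4 to Hcn2 differed by 0.25 ± 0.11. In both ratios the groups did not overlap, and the exact two-sided permutation p was 0.1 (0.15 after Benjamini-Hochberg adjustment over the 3 ratios among members). Both hold Hcn2 and rest on the same values as the shares above, so they are not independent results. Hcn4 to Hcn3 showed no such shift, with a difference of -0.01 ± 0.10 (exact two-sided permutation p = 1).

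The changes were ordered as GC content was, with Hcn2 first and Hcn3 and Hcn4 close together behind it. Hcn2 belongs to the decile of protein-coding genes with the highest GC content (58.5% to 74.4%), where the median log2 fold change was -0.31, 829 of 1494 genes fell and 2 rose. Hcn3 and Hcn4 belong to the next decile below (56.2% to 58.5%), with a median of -0.20, 515 falls and 4 rises among 1493 genes. At the other end of the scale, the lowest decile (32.6% to 42.2%) had a median of 0.32, with 682 of 1494 genes higher and 15 lower. Within its own decile each HCN gene stood on the low side: 9.04% of the genes had a lower log2 fold change than Hcn2, and 15.3% than Hcn4, with Hcn3 close to Hcn4. A decile is not a close match in GC content, however. The highest had a median of 60.2%, against 65.4% for Hcn2, and only 0.43% of protein-coding genes lay above Hcn2. The next had a median of 57.3%, against 58.0% for Hcn3 and Hcn4. Vehicle replicate 1, with the smallest GC slope of its group, held the lowest Hcn2, Hcn3 and Hcn4 values among vehicle libraries. NTG replicate 3, with the slope nearest to 0, held the highest among NTG libraries. In vehicle, Hcn4 did not follow the order of the slopes. It gave 865 normalised reads in replicate 3 and 794 in replicate 2, whose slope was larger. The part of the slopes in these values was not tested.

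**Figure D3:**
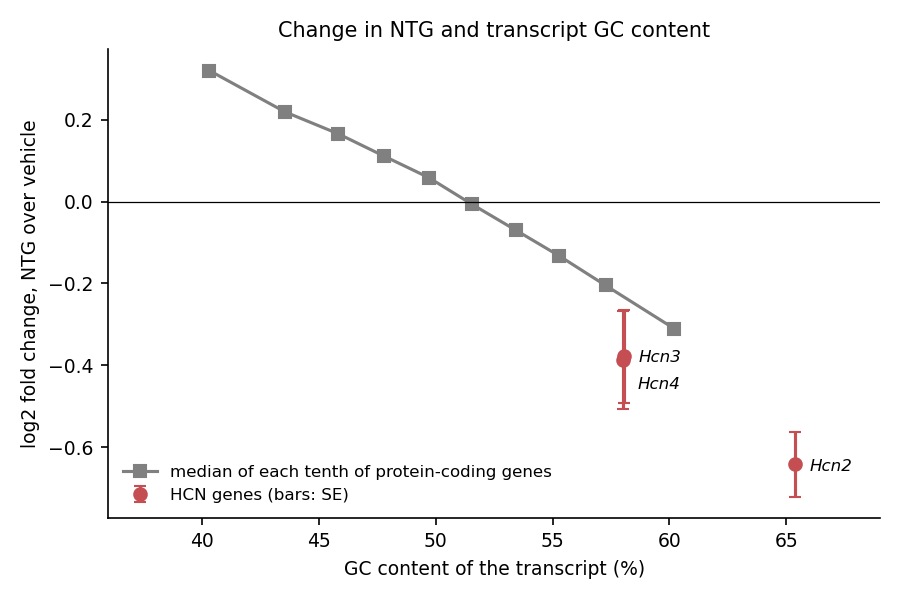
Log2 fold change in NTG against vehicle (vertical axis) over GC content of the transcript in percent (horizontal axis). Grey squares are the medians of deciles of protein-coding genes and fall from 0.32 to -0.31, and red points are the HCN genes with their SE. Hcn3 and Hcn4 lie below the grey line. Hcn2, at 65.4% GC, lies beyond its last square at 60.2%, where no line is drawn.

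After removal of the trends over transcript GC content and length the 3 genes moved close together. The log2 fold change of Hcn2 became -0.16 ± 0.05 (SE, limma adjusted p = 0.0308), that of Hcn3 -0.15 ± 0.10 (0.411) and that of Hcn4 -0.16 ± 0.10 (0.345). By this measure 1 of the 3, Hcn2, fell, while 5.42% of the 16278 genes tested fell and 3.61% rose. The ratio of Hcn3 to Hcn2 then differed between groups by 0.02 ± 0.10 and that of Hcn4 to Hcn2 by 0.00 ± 0.12 (exact two-sided permutation p = 0.8 and 1).

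The size of these values depended on which sequence stood for the gene. With GC content and length of the coding sequence in place of the transcript, Hcn2 fell by 0.35 on the log2 scale (limma adjusted p = 0.000153). With GC content alone Hcn2 was at -0.16 (limma adjusted p = 0.0419), and with the mean over all annotated transcripts at -0.18 (0.0172). Hcn3 and Hcn4 passed in none of these. After the removal Hcn2 missed the threshold without vehicle replicate 2 (limma adjusted p = 0.124), vehicle replicate 3 (0.0660), NTG replicate 1 (0.0952) or NTG replicate 2 (0.158). How much of the difference in Hcn2, Hcn3 and Hcn4 comes from base composition in library preparation or sequencing was not tested.

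**Figure D4:**
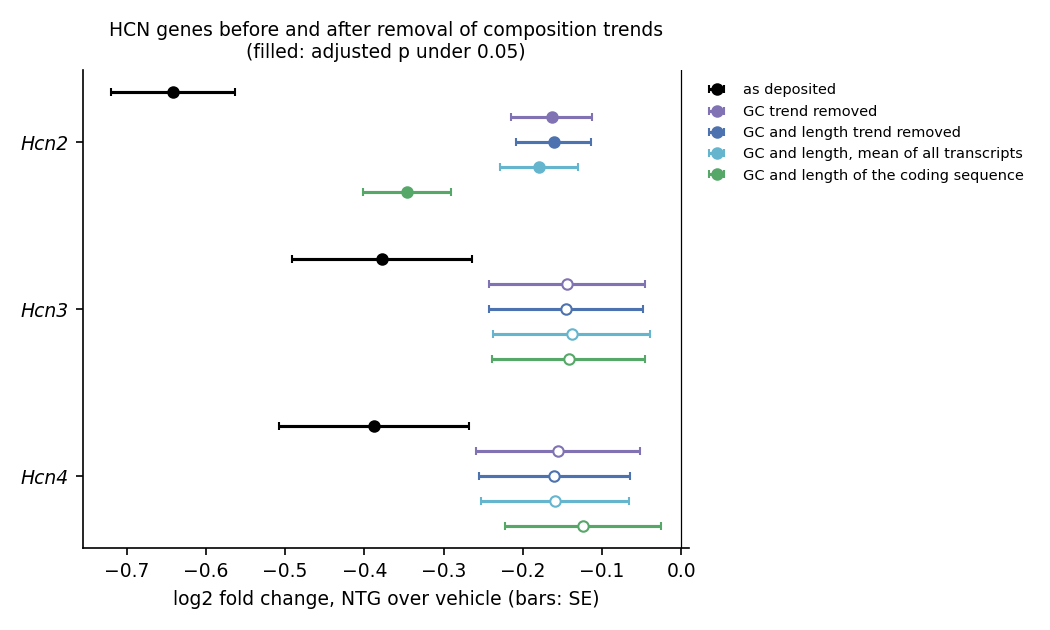
Log2 fold change in NTG against vehicle with its SE (horizontal axis) for each HCN gene, as deposited and after removal of trends over GC content, with or without length, computed from different sequences. Filled points have a limma adjusted p under 0.05. Hcn2 stays below 0 and filled throughout (-0.64 to -0.16), and Hcn3 and Hcn4 lose the call.

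Neighbours were taken only from genes with deposited values, so others may lie nearer. Of the 6 nearest such genes on either side of Hcn2, Hcn3 and Hcn4, 1 passed the test on the deposited values, beside Hcn3. Polrmt, the mitochondrial RNA polymerase gene on the opposite strand, ends 16 bases from the end of Hcn2. It stood at 657 ± 30.3 normalised reads in vehicle and 594 ± 27.0 in NTG (limma adjusted p = 0.216). Bsg, which encodes the membrane protein basigin 4654 bases before Hcn2, stood at 8277 ± 400.4 and 7955 ± 96.3 (limma adjusted p = 0.446). With the GC and length trends out, Bsg rose by 0.15 on the log2 scale (limma adjusted p = 0.0279). None of Polrmt, Fdps, Rec114 and Neo1 passed after the removal, for which Gm45927 had no transcript value. Next to Hcn4 lie Rec114, a meiotic recombination gene that starts 242 bases away on the opposite strand (limma adjusted p = 0.478), and Neo1, the netrin receptor neogenin (0.580). Beside Hcn3, the predicted gene Gm45927 on the opposite strand, 4510 bases away, fell from 1945 ± 158 to 1609 ± 99.9 (-0.27 on the log2 scale, limma adjusted p = 0.00698). On the other side, 44807 bases away, Fdps, a gene of isoprenoid synthesis, did not pass (limma adjusted p = 0.388). In the RefSeq gene table Pklr overlaps the end of Hcn3 and was not analysed here. Whether the counting used strand is not stated, and without it reads of overlapping genes cannot be told apart.

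Promoter sequences were at hand for Hcn2 and Hcn4, in the RefSeq table for GRCm38.p6. They are shown as background, and both are richer in GC than the transcripts. Any part of the promoters in the changes was not tested. The Hcn4 window overlaps Rec114 at its lower end, as the interval of Rec114 ends at 58822706. The 250 bases before each start are printed 5′ to 3′ on the plus strand, at chr10:79716384-79716633 for Hcn2 and chr9:58822699-58822948 for Hcn4, with GGGCGG motifs (GC boxes, either strand) in capitals.
Hcn2: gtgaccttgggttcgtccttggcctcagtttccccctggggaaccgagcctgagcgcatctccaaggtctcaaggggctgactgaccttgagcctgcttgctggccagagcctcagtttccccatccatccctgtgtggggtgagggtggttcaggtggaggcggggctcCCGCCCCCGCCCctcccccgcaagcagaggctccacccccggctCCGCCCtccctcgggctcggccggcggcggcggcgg
Hcn4: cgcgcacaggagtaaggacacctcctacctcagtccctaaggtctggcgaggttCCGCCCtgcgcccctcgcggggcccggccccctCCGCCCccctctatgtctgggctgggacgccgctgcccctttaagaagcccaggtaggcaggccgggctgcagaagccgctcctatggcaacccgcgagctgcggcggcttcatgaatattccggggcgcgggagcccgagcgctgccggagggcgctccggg
Hcn2 held 3 such motifs and Hcn4 2, and 32.9% of all 27025 promoters held at least 1 on either strand. Neither TATAAA, found in 13.0% of promoters, nor TGACGTCA, the palindromic cyclic AMP response element found in 1.62%, occurred in these windows on either strand. GC content was 70.4% and 71.2%, higher than in 91.6% and 92.6% of promoters. CpG dinucleotides numbered 16 in Hcn2 and 25 in Hcn4, against a median of 6. A match is a string of letters and says nothing of binding.

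Among proteins known to bind HCN subunits or to change their trafficking or turnover, 3 of 14 genes tested fell and 0 rose, where 13.5% of all genes fell and 12.3% rose. The same shares of all genes apply to the counts of the other lists on the deposited values, and several of these counts lie near them. After the GC and length removal 5.42% of all genes tested fell and 3.61% rose. For the partners the median log2 fold change was -0.14, against 0.00 over all genes, and -0.03 after the GC and length removal. Pex5l, which encodes the auxiliary subunit TRIP8b that governs surface trafficking and the cyclic AMP response of HCN channels, gave 4803, 4921 and 4628 normalised reads in vehicle and 5047, 4957 and 4990 in NTG (0.06 ± 0.05 on the log2 scale, limma adjusted p = 0.399). Each NTG library lay slightly above each vehicle library. Vapa, an endoplasmic reticulum membrane protein that promotes HCN surface expression, fell by 0.27 on the log2 scale (limma adjusted p = 0.00224), from 2508 ± 61.1 to 2082 ± 95.9. Ptpra, a receptor tyrosine phosphatase, fell by 0.21 (limma adjusted p = 0.00879). Without NTG replicate 2 Ptpra stood at -0.19 and just missed the threshold (0.0548). Apba2, an adaptor protein, fell by 0.19 (limma adjusted p = 0.0266). Its call was lost without vehicle replicate 3 (log2 fold change -0.16, limma adjusted p = 0.0964), NTG replicate 1 (-0.19, 0.0739) or NTG replicate 2 (-0.19, 0.0961). After the GC and length removal Vapa (-0.50) and Ptpra (-0.24) passed and Apba2 did not (-0.03).

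The closest relatives of HCN channels carry a cyclic nucleotide-binding domain or its homologue. Of the 8 such genes tested, 2 rose and 1 fell, with a median log2 fold change of -0.05. The KCNH potassium channel gene Kcnh7 rose from 1801 ± 35.1 to 2640.5 ± 124 normalised reads (0.55 ± 0.06 on the log2 scale, limma adjusted p = 4.13e-06), with a transcript of 13321 bases at 39.6% GC. Kcnh5 rose from 408 ± 59.7 to 567 ± 28.7 (0.48 ± 0.11, limma adjusted p = 0.00204). Kcnh2, the ether-a-go-go-related channel gene with 61.3% GC, fell from 4533 ± 334 to 3617 ± 283 (-0.33 ± 0.07, limma adjusted p = 0.00109). After the GC and length removal Kcnh7 (0.21) and Kcnh5 (0.43) passed and Kcnh2 stood at 0.01 (limma adjusted p = 0.930).

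Cyclic AMP, the ligand of HCN channels, is made by adenylyl cyclases under G protein control. Of 14 cyclase and G protein genes tested, 1 rose and 4 fell (median log2 fold change -0.05). Gnas, which encodes the stimulatory alpha subunit, fell from 41963 ± 462 to 32956 ± 2160 normalised reads (-0.35 on the log2 scale, limma adjusted p = 1.96e-05). Gnai2, an inhibitory subunit, fell from 5711 ± 44.9 to 4584 ± 205 (-0.32, limma adjusted p = 0.000182), and Gnai3, another, rose from 911 ± 54.2 to 1141 ± 124 (0.32, limma adjusted p = 0.00657, or 0.25 with 0.0540 without NTG replicate 1). The cyclase gene Adcy5 fell by 0.31 on the log2 scale (limma adjusted p = 0.00135) and Adcy6 by 0.24 (0.0274). Adcy6 missed the threshold without vehicle replicate 2 (-0.23, limma adjusted p = 0.0706), vehicle replicate 3 (-0.19, 0.0978), NTG replicate 1 (-0.24, 0.0736) or NTG replicate 2 (-0.21, 0.134). None of these 5 passed after the GC and length removal, when Gnai1, chosen after its value was seen, fell by 0.27 (limma adjusted p = 0.00120).

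Phosphodiesterases break cyclic AMP down, and 2 of 16 rose and 1 fell (median log2 fold change 0.02). Pde1c, a calcium-dependent member, rose from 1206 ± 71.3 to 1649 ± 99.8 normalised reads (0.45 on the log2 scale, adjusted p = 0.000100 by limma) and kept 0.32 with the GC and length trends out (0.00123). Pde1a rose from 106 ± 7.77 to 155 ± 21.4 (0.54, limma adjusted p = 0.0212). It missed the threshold without NTG replicate 1 (0.43, 0.155) or NTG replicate 2 (0.58, 0.0549). Pde4a, a cyclic AMP-specific member, fell from 311 ± 50.5 to 212 ± 13.0 (-0.54, limma adjusted p = 0.00422). Neither Pde1a nor Pde4a passed after the removal (0.363 and 0.0973).

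Other proteins that bind or answer to cyclic AMP gave 3 rises and 1 fall among 11 genes tested (median log2 fold change -0.03). Prkaca, a catalytic subunit gene of protein kinase A, fell from 6669 ± 396 to 5377 ± 329 normalised reads (-0.31 on the log2 scale, adjusted p = 0.000534 by limma) and also with the GC and length trends out (-0.18, 0.0237). Its relative Prkacb rose by 0.17 (limma adjusted p = 0.0132) and narrowly missed the threshold at a like size without vehicle replicate 3 (0.16, 0.0511) or NTG replicate 2 (0.18, 0.0539). The regulatory subunit gene Prkar1a rose by 0.19 (limma adjusted p = 0.00335). Rapgef4, which encodes a cyclic AMP-activated exchange factor, rose by 0.19 (limma adjusted p = 0.0204) and missed the threshold without vehicle replicate 3 (0.14, 0.131) or NTG replicate 2 (0.16, 0.126). Prkacb, Prkar1a and Rapgef4 did not pass after the removal. Prkar2b (-0.24, limma adjusted p = 0.00368) and Prkar1b (0.15, 0.0228), 2 regulatory subunit genes chosen after their values were seen, passed only then.

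**Figure D5:**
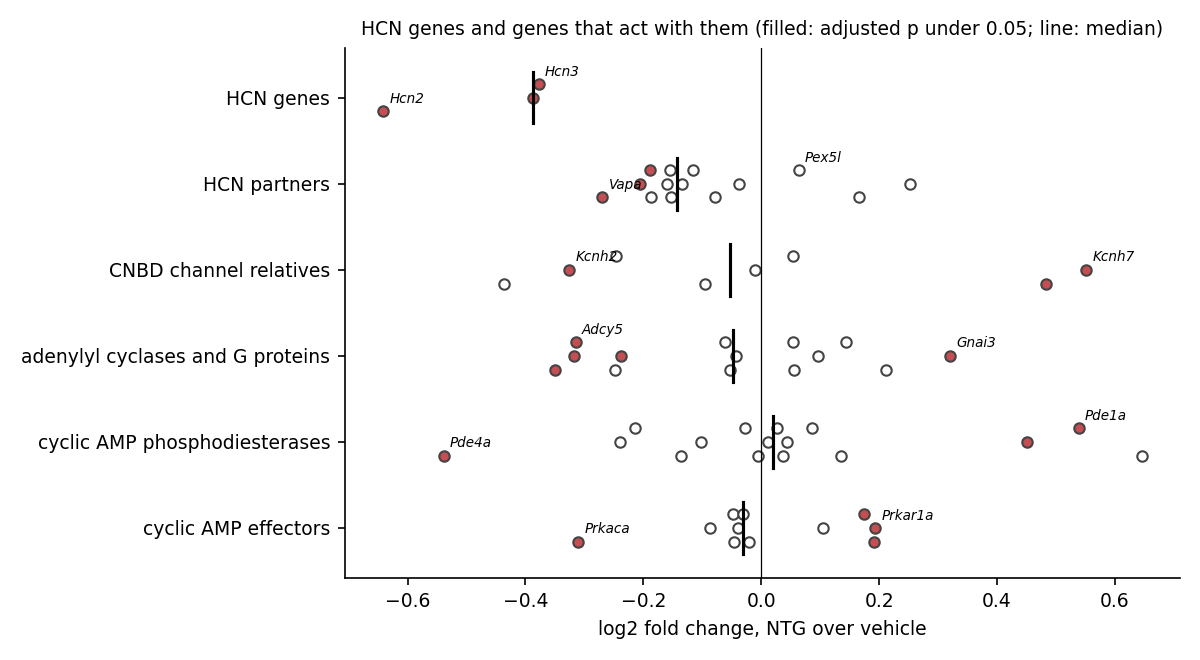
Log2 fold change in NTG against vehicle (horizontal axis) of each tested gene among Hcn2, Hcn3 and Hcn4 and in the lists of partners, related channels, cyclases and G proteins, phosphodiesterases and other cyclic AMP effectors (rows). Filled points have a limma adjusted p under 0.05 and vertical lines mark the list medians, which lie between -0.14 and 0.02 for the 5 lists other than the HCN genes (-0.39).

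Markers of the neurons that carry HCN channels showed no common direction in their calls. Of 16 markers of larger myelinated (A-fibre) neurons 6 rose and 6 fell, of 16 C-fibre markers 2 rose and 1 fell, and of 12 pan-neuronal markers 3 rose and 3 fell. Summed pan-neuronal markers lay at 7950 to 8203 CPM in vehicle and 7816 to 7983 in NTG, with none at 0. Their mean level on the log2 CPM scale was slightly lower in each NTG library (8.57 to 8.59) than in any vehicle library (8.60 to 8.63). Satellite glia markers gave 2 rises and 4 falls of 10, Schwann cell markers 2 and 2 of 9, and vessel markers 1 and 2 of 10. After the GC and length removal 2 of the 16 A-fibre markers fell and 0 rose, 1 of the C-fibre markers rose and 0 fell, and 2 pan-neuronal markers rose and 3 fell. Over all genes tested, 5.42% then fell and 3.61% rose, which is the background for all counts after the removal. The median log2 fold change was then -0.11 for pan-neuronal, 0.02 for A-fibre and 0.03 for C-fibre markers, against 0.01 over all genes. Satellite glia markers then gave 1 rise and 2 falls, and Schwann cell and vessel markers 0 of either. Among other cells, skeletal muscle markers fell in 7 of 12 genes, and in 5 after the removal (summed 74.2 to 80.1 CPM in vehicle and 67.6 to 73.8 in NTG, most of it Pvalb, which is also a neuronal marker). Fibroblast markers fell in 4 of 8, before and after the removal (1342 to 1478 against 1098 to 1285 CPM) and macrophage markers in 3 of 10, or 1 of 10 after it (163 to 174 against 133 to 146). Of 7 heart and pituitary markers 1 fell, Pomc, also after the removal, where 13.5% of all genes fell on the deposited values. This list summed to 85.4 to 194 CPM in vehicle and 22.4 to 120 in NTG. The cardiac myosin gene Myh6, of the tissue best known for Hcn4, stood at 3.82 to 7.53 CPM in vehicle and 3.38 to 5.08 in NTG, against 29.6 to 41.7 and 25.0 to 30.7 for Hcn4. The part of these cells in the changes of Hcn2, Hcn3 and Hcn4 was not tested.

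The genes whose pattern over the 6 libraries was most like that of a member were named by Pearson's r of log2(value + 1), among 11876 other protein-coding genes with a mean of at least 100 normalised reads. For Hcn2 they were Cdk5r2, Ssbp3, Zdhhc18, Pgp and Rab11fip3 (r from 0.998 to 0.999), with transcripts at 54.2% to 63.9% GC. For Hcn3 they were Carmil2, Clip2, Pard6b, Mapk8ip2 and Mapk8ip3 (r from 0.997 to 0.999), and for Hcn4 Grm4, Sppl2b, Casc3, 2310061I04Rik and Ucp2 (r from 0.992 to 0.997). These libraries share the group difference and the GC slopes, and with 6 points and this many candidates some values near 1 occur in any case. Cdk5r2, a neuronal activator of the kinase CDK5, went from 6240 to 4016 normalised reads on average, a log2 fold change of -0.64, the same as that of Hcn2 to 2 decimals.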

How the data were processed

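The members, lists and tests were chosen with earlier results of these data known. RNA was extracted with TRIzol and selected on poly-T beads, and strand-specific libraries were sequenced in paired ends, per the labels' protocols. FastQC, HISAT2 and GRCm38 appear in the submitters' processing notes; for counting and normalization no tool is named there. The deposited values are a signal, gene counts divided by a size factor. All values (100%) were whole reads within 0.01 after division by the library's step.

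The 17475 genes that reached a value of 1 in 3 or more libraries entered a two-sided test on log2(value + 1), the scale of all fold changes. The test was limma with an intensity trend and robust moderation, Benjamini-Hochberg adjusted, at a threshold of 0.05. Transcript GC content and length came from GENCODE M21, 1 principal transcript per gene (93.2% of genes matched), and the trends were fitted with mgcv. The quasi-likelihood test of edgeR on recovered reads called 4544 genes. Within each group the libraries differed more than sampling of reads gives (a chi-square of 4.10 to 7.59 for each degree of freedom). A count of 3 reads corresponds to 0.126 to 0.159 CPM, for counting error only. The alternatives were other pseudocounts, filters, scalings and tests, a minimum fold, the replicate block, each library left out, and GC removals. Of these, the removals by GC content alone, by all transcripts and by coding sequence were chosen after seeing the data. Named genes were the HCN genes and their neighbours, list members past the threshold (at most 6 per list) with Pex5l, and the 5 genes most like each member. The scripts were tested on simulated data. The software was Python 3.11.15 with matplotlib 3.10.9, numpy 2.4.6 and pandas 2.3.3, and R 4.3.3 with mgcv 1.9.3, DESeq2 1.42.0, edgeR 4.0.16 and limma 3.58.1.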

Additional observations from a re-analysis of the deposited data

How the results depend on the processing

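Hcn2 passed as lower in NTG under each alternative with all 6 libraries, at log2 fold changes of -0.64 to -0.16, and with 1 library left out, at -0.74 to -0.59. With the GC and length trend removed and 1 library left out it lay between -0.19 and -0.14 and missed the threshold for 4 of the 6 libraries. Hcn3 and Hcn4 did not pass against a minimum fold of 1.2 (-0.38 and -0.39, limma adjusted p = 0.946 and 0.931) or after any GC removal: transcript GC content and length (-0.15 and -0.16), GC content alone (-0.14 and -0.16), all transcripts (-0.14 and -0.16) or coding sequence (-0.14 and -0.12). With 1 library left out Hcn3 ranged from -0.49 to -0.24 and Hcn4 from -0.54 to -0.28, and with the removal as well from -0.23 to -0.046 and from -0.28 to -0.063. The ratio of Hcn4 to Hcn3 ranged from -0.073 to 0.072 with 1 library left out. The number of genes past the threshold, 4512, was 313 against a minimum fold of 1.2, 2946 to 4678 with 1 library left out, 1471 after the GC and length removal (671 to 1638 with 1 library left out), 1388 by GC content alone, 1714 by all transcripts and 1592 by coding sequence. List members past the threshold went from 18 to 9 of 63 after the removal, and 6 were called both times. Before it 13.5% of the 17475 genes tested fell and 12.3% rose, and after it 5.42% of 16278 fell and 3.61% rose. The cause was not tested, apart from the smaller number of libraries or the minimum fold where these define the alternative.

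The labels do not say whether equal replicate numbers pair the libraries. Deviations of same-numbered libraries from their group mean correlated at 0.08, -0.03 and 0.09 over genes, and those of other pairs at -0.17 to 0.08. With 3 libraries per group these values cannot decide whether the libraries are paired. With the replicate block Hcn2 (-0.64, limma adjusted p = 5.70e-13), Hcn3 (-0.38, 0.00110) and Hcn4 (-0.39, 0.000321) passed and 5254 genes were called. With the block and the GC and length removal, Hcn2 stood at -0.16 (limma adjusted p = 0.00702), Hcn3 at -0.15 (0.325) and Hcn4 at -0.16 (0.222), and 2012 genes were called. The other scalings moved the median of all genes by at most 0.02 on the log2 scale.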

Other observations

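After removal of the group means, which leaves only the differences among libraries of a group, the genes most like Hcn2 over the 6 libraries were Pgp, Dennd2a, Asic2, Cdk5r2 and Ssbp3 (Pearson's r from 0.993 to 0.998). Asic2 encodes an acid-sensing ion channel subunit and went from 2246 to 1665 normalised reads on average (log2 fold change -0.43, limma adjusted p = 0.000430). Those most like Hcn3 were Rtn1, Wdr24, Adgrb1, Capn15 and Syt7 (r from 0.998 to 0.999). For Hcn4 they were Etnppl, B3galt5, Grm4, Lpin1 and Hmga1 (r from 0.997 to 0.998). Pgp, Cdk5r2 and Ssbp3 for Hcn2 and Grm4 for Hcn4 were also among the 5 genes named with the group means kept. Both rankings use the same differences among libraries of a group, so these repeats are not independent. The genes are again the highest of 11876 candidates over 6 libraries, where some values near 1 occur in any case. Etnppl differed from Hcn4 in direction between groups, at 159 normalised reads in vehicle and 273 in NTG.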
